A study of Camponotus fellah with 299 samples.

Results

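The 100 gene models described here are those whose brain expression went most closely with queen attendance among low-maturity workers of the carpenter ant Camponotus fellah. They are 50 models with the most positive correlation, called the high list, and 50 with the most negative one, called the low list. They come from 14664 gene models in the table, of which 8183 had a median of at least 5 CPM (counts per 1000000 counted reads) over all ants and could be chosen. The value that chose them, r, is the mean over 3 colonies of the partial Spearman rho between CPM and the tally of queen attending events, given age and the brood care tally. The rule took the 50 highest and the 50 lowest r. No member was left out by the filter on low counts, so all 100 were among the 10457 gene models tested in each comparison below.

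Single brains of 299 ants of colonies 2, 3 and 4 were sequenced, with 19.8 to 73.2 M counted reads per brain (M, 1000000 reads) and a median of 38.3 M. All were untreated ants of 1 species, with no strain or genotype given, and their behaviour had been recorded during a week of tracking before the colonies were killed. Labels of age, body size, maturity and behaviour were present for 289 ants and missing for 3, 6 and 1 ants of the 3 colonies. Maturity is a label between 0 and 1 that the sources used here do not define. In colony 4 it ran against brood care and was turned round (1 minus the label), and the resulting value is called oriented maturity. Ants above 0.75 form the high end (39, 24 and 24 ants in colonies 2, 3 and 4), ants below 0.25 the low end (38, 55 and 69 ants), and the rest are intermediate (10, 19 and 11 ants). The rule used only the 162 low-end ants. The other labelled ants, 87 high-end and 40 intermediate, aged 1 to 46 months, had no part in choosing the members. The low-end ants were 1 to 38 months old.

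In ant colonies the queen lays the eggs, and workers that stay beside her lick and feed her. These attendants are usually drawn from the workers inside the nest that also care for brood, whereas foragers leave the nest and meet the queen rarely. Carpenter ant workers differ in body size within a colony, and size is known to go with the tasks a worker takes up.

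The low-end ants did most of the recorded care. Their brood care tally had a median of 7.5 and ran up to 60, although 18 of the 162 had a tally of 0. The queen attending tally had medians of 5, 5 and 2 in colonies 2, 3 and 4, and its highest values were 38, 29 and 45. Seen with the queen at least once were 32, 45 and 54 low-end ants of the 3 colonies, and 31 were never seen with her. Of the other labelled ants, 16 were seen with the queen, none more than 5 times. The name nurses therefore holds for most of these ants and not for each of them. The identifiers consist of a contig and a number, and the sources used here do not pair them with gene names. For that reason the tissue label could not be checked against brain markers, no role can be given for a member, and 2 models of each list are followed by identifier while the others are given by counts and ranges. Levels are compared between ants, never between genes, because gene lengths are not used here.

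Among the low-end ants, other labels moved with the queen attending tally, which bears on every value below. The longer ants of colony 2 attended more: Spearman's rho between tally and body length was 0.59 (permutation p = 0.00011, adjusted p = 0.00033 over 9 relations) and Pearson's r was 0.41 (permutation p = 0.013, adjusted p = 0.038), or 0.61 without the 2 ants of most extreme length. In colony 3, rho was 0.28 (permutation p = 0.042, adjusted p = 0.095) and r was 0.32 (permutation p = 0.017, adjusted p = 0.038), or 0.34 without 2 such ants. In colony 4, rho was 0.13 (permutation p = 0.27, adjusted p = 0.35) and r was 0.066 (permutation p = 0.58, adjusted p = 0.70), or 0.12 without 2 such ants. Body length thus went with attendance in colony 2 on both measures, in colony 3 on Pearson's r alone after adjustment, and in colony 4 on neither.

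Oriented maturity, within the narrow range below 0.25, was lower in ants that attended more. In colony 3 rho was -0.61 (permutation p = 1e-05, the smallest these permutations can give, adjusted p = 4.5e-05) and r was -0.48 (permutation p = 0.00041, adjusted p = 0.0037), or -0.51 without the 2 ants of most extreme maturity. In colony 4 rho was -0.60 (permutation p = 1e-05, again the smallest possible, adjusted p = 4.5e-05) and r was -0.37 (permutation p = 0.0039, adjusted p = 0.018), or -0.38 without 2 such ants. In colony 2 rho was -0.19 (permutation p = 0.25, adjusted p = 0.35) and r was -0.13 (permutation p = 0.45, adjusted p = 0.68), or -0.063 without 2 such ants. Maturity and attendance were therefore hard to separate in colonies 3 and 4, and body length and attendance in colony 2. The library total had a rho with the tally of -0.028, 0.21 and -0.078 in colonies 2, 3 and 4 (permutation p = 0.86, 0.12 and 0.52, adjusted p = 0.86, 0.21 and 0.59) and an r of 0.065, 0.23 and 0.051 (permutation p = 0.70, 0.085 and 0.67, adjusted p = 0.70, 0.15 and 0.70), or 0.12, 0.24 and 0.11 without 2 ants each.

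The values that chose the members are given as a description, with no test. In the high list r ran from 0.38 to 0.51 with a median of 0.40, and in the low list it ran from -0.50 to -0.39 with a median of -0.41, beside a median of -0.017 over the 8183 models. The last member inside the high list had an r of 0.3759 and the first model outside it 0.3745, and at the other end these were -0.3949 and -0.3948. Neither list is set off by a gap from the models next to it. All 50 members of each list had the same sign of rho in each of the 3 colonies. The median rho of the high list was 0.49, 0.28 and 0.44 in colonies 2, 3 and 4, and that of the low list was -0.52, -0.28 and -0.48. Colony 3 had the medians nearest to 0 in both lists.

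**Figure D1:**
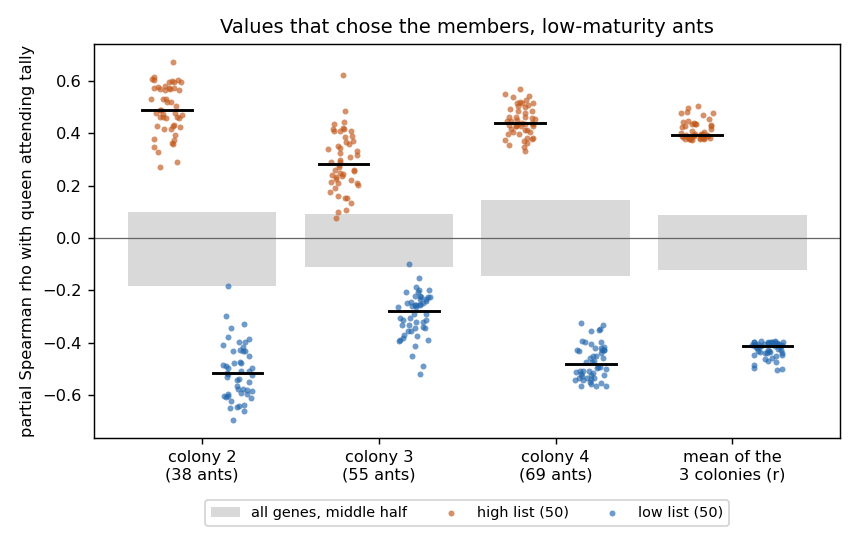
Partial Spearman rho of CPM with the queen attending tally (y axis, no unit) in low-end ants, by colony and as the mean r (x axis); each point is a member of the high list (orange) or the low list (blue), black bars are list medians and grey boxes span the middle 50% of 8183 models. All members lie on their own side of 0 in every colony, and the medians of colony 3, 0.28 and -0.28, are the nearest to 0.

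The changes behind these correlations were small in size. Per doubling of the tally plus 1, the fitted log2 level of the high-list members differed by 0.026 to 0.14 (median 0.058), and that of the low-list members by -0.35 to -0.016 (median -0.041). In that edgeR fit, given colony, age and brood care, 8.83% of all genes tested were called higher and 7.33% lower with attendance at an adjusted p below 0.05. All 50 and all 50 members were among them, but the rule used this contrast, so nothing is read from that count. Over all genes 16.2% were called with the 3 colonies, 11.6% without colony 2 and 13.9% without colony 3. Without colony 4 only 0.822% were called. Median levels of the members ran from 11.6 to 1084 CPM in the high list and from 6.67 to 3780 CPM in the low list. The member with the fewest reads in each list had a median of 446 and 248 reads per brain. The part of counting error in the spread between ants was not tested. In whole brains, fewer cells of a type and less RNA per cell cannot be told apart.

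The model evm.model.ctg44.74 had the highest r, 0.51. Its level in low-end ants with a tally of 0 was between 95.02 and 206.6 CPM with a median of 153.0 (31 ants), with a tally of 1 to 9 between 84.5 and 257.3 with a median of 169.8 (91 ants), and with a tally of 10 or more between 138.7 and 241.9 with a median of 186.4 (40 ants). The medians rose with the tally and the 3 ranges overlapped widely. In colonies 2, 3 and 4 the partial rho was 0.35, 0.62 and 0.54. The fitted slope on the doubled tally was 0.071 ± 0.010 log2 (SE, 162 ants). The model evm.model.ctg12.178 had the next highest r, 0.50. Its medians were 154.5, 164.1 and 175.3 CPM in the same 3 bands, with ranges of 127.6 to 175.2, 128.8 to 208.0 and 125.2 to 205.5 CPM. These bands pool the colonies. In colony 2 alone the medians were 169.3, 168.3 and 179.5 CPM, and in colonies 3 and 4 they rose from band to band. The slope was 0.049 ± 0.007 log2 (SE), and again the bands overlapped.

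The model evm.model.ctg58.41 had the lowest r, -0.50. Its medians were 147.4, 136.4 and 123.9 CPM at tallies of 0, 1 to 9 and 10 or more, with ranges of 105.9 to 196.4, 99.7 to 197.5 and 93.5 to 151.2 CPM. The slope was -0.060 ± 0.009 log2 (SE). The model evm.model.ctg1.273 was next, with an r of -0.50, and had the steepest slope of all members, -0.35 ± 0.048 log2 (SE). Its medians were 126.6, 49.2 and 27.1 CPM in the 3 bands, with ranges of 22.7 to 274.9, 6.73 to 308.8 and 9.17 to 78.98 CPM. Single ants with a tally of 0 differed more than 10-fold in this model, whereas no ant with a tally of 10 or more went above 78.98 CPM. In colony 4 alone the 12 ants with a tally of 10 or more had at most 40.3 CPM, against a median of 150.1 CPM in the 15 ants that were never seen with the queen.

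**Figure D2:**
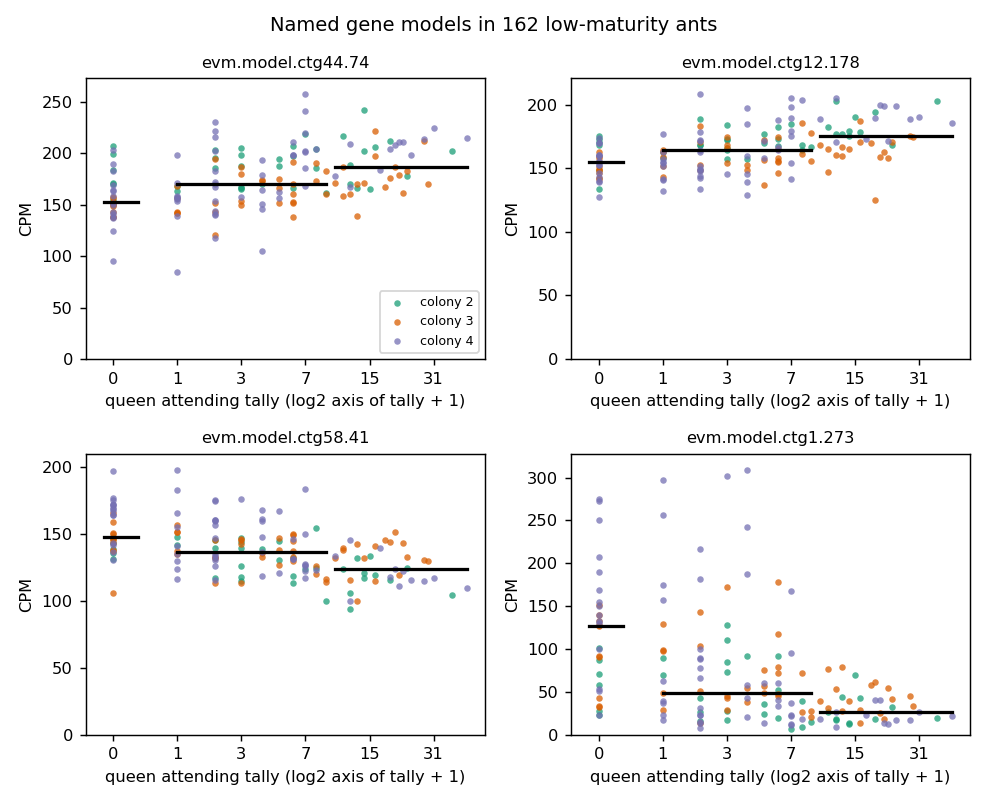
CPM (y axes, from 0) of the 4 named gene models against the queen attending tally (x axes, log2 scale of the tally plus 1) in 162 low-end ants; each point is an ant, coloured by colony, and black bars are medians of ants with tallies of 0, 1 to 9, and 10 or more. The medians of evm.model.ctg44.74 are 153.0, 169.8 and 186.4 CPM and those of evm.model.ctg1.273 are 126.6, 49.2 and 27.1 CPM, with wide overlap between bands.

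When the lists were chosen again by the same rule from 2 colonies and read in the colony left out, most of the new members had the same sign there. In colony 2, 47 of 50 models chosen as positive had a positive rho (median 0.29) and 49 of 50 chosen as negative had a negative one (median -0.39). In colony 3 these were 50 and 49 of 50, with medians of 0.21 and -0.21, and in colony 4 they were 50 and 49 of 50, with medians of 0.41 and -0.41. Over all 8183 models the share with a positive rho was 41.6%, 46.5% and 50.5% in colonies 2, 3 and 4. The lists chosen in this way shared 22, 35 and 37 high-list members and 29, 30 and 32 low-list members with the full lists when colonies 2, 3 and 4 were left out. The direction was mostly shared by the colony left out, while the exact membership was not. All these ants also chose the full lists, so the values are a description. Members of the full lists varied together, with a median rho between pairs of 0.51 in the high list and 0.57 in the low list. The counts out of 50 are therefore not 50 separate observations.

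A further label added to the partial correlation turned the sign of r in no member. Body length and maturity lowered its size and the library total raised it slightly. With body length added, the median r was 0.34 in the high list and -0.34 in the low list. With oriented maturity added it was 0.26 and -0.28, and with both added it was 0.21 and -0.24. With the library total added it was 0.42 and -0.44. In colony 3 the median rho of the high list was 0.097 with maturity added, against 0.28 without it. In all these the 50 and 50 members kept a positive and a negative mean. Membership held less well. Choosing again with maturity added kept 31 high-list and 23 low-list members, and with body length and maturity both added 23 and 11. These values come from the ants that chose the members and are a description.

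Other behaviours of the same low-end ants were read in the same way. Body length, given age and brood care, had a median partial rho of 0.34 with the high list and -0.30 with the low list, and 0.23 and -0.18 when the queen attending tally was added. In colony 2 adding the tally left 0.084 of a median of 0.39 in the high list. Nest cleaning, given age and brood care, ran opposite to attendance, with medians of -0.19 and 0.19. It was negative in 49 of 50 high-list members and positive in 50 of 50 low-list members. Over all 8183 models 4526 were negative for it and 3657 positive. The queen attending tally was not added for cleaning, so a part of cleaning apart from attendance was not tested. Brood care, given age and the queen attending tally, ran the same way as attendance, with medians of 0.14 and -0.20, although in colony 3 its medians were -0.025 and -0.058. Grooming in the nest and food exchange in the nest had medians between -0.023 and 0.042 in both lists, beside -0.012 and -0.0061 over all models. Food exchange was positive in 40 of 50 high-list members and negative in 34 of 50 low-list members. Over all 8183 models 3810 were positive for it. Grooming was negative in 31 high-list members and positive in 30 low-list members, beside 4573 negative and 3610 positive of the 8183 models.

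Body size was tested in the 87 high-end and 40 intermediate ants, which the rule did not use. In these ants 48 of the 50 high-list members were called higher in longer ants, beside 13% of all genes tested, and 48 of the 50 low-list members were called lower, beside 11.3% of all genes (edgeR, given colony, oriented maturity and age, adjusted p below 0.05). All 50 and 50 members had the sign they had with queen attendance. The slope per unit of body length, whose unit the labels do not give, had a median of 0.079 log2 in the high list (0.016 to 0.25) and -0.062 in the low list (-0.44 to -0.025), against a median of 0.0014 over all genes. The 4 members that missed the threshold had adjusted p-values in that edgeR fit of 0.050 to 0.15 and slopes of 0.052, 0.016, -0.025 and -0.074 log2. With head width in place of body length, 48 and 48 members were called in the same directions, beside 12.5% of all genes called higher and 10.4% called lower.

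The named models showed this at the level of single ants. Among these high-end and intermediate ants, divided at the median length of each colony, evm.model.ctg44.74 had 109.8 to 215.1 CPM with a median of 161.2 in the 62 longer ants, against 84.02 to 195.0 CPM with a median of 146.3 in the 65 shorter ants. The ranges overlapped over most of their width, and its slope was 0.078 ± 0.016 log2 per unit of length (SE, 62 and 65 ants together, edgeR adjusted p = 8.4e-05). For evm.model.ctg12.178 the longer ants had 118.2 to 213.2 CPM with a median of 165.9 and the shorter ants 114.3 to 193.1 CPM with a median of 159.8, with a slope on length of 0.051 ± 0.011 log2 (SE, edgeR adjusted p = 0.00032). Pooled over colonies, both models of the high list were thus somewhat higher in longer ants, with much overlap between the groups. By colony, the slopes of evm.model.ctg12.178 were 0.067, 0.025 and 0.051 log2 in colonies 2, 3 and 4. That of colony 3 did not pass the threshold (SE 0.022, edgeR adjusted p = 0.59). Longer ants had 92.1 to 181.7 CPM of evm.model.ctg58.41 with a median of 137.6, against 106.5 to 188.9 CPM with a median of 150.2 in shorter ants, a slope on length of -0.079 ± 0.011 log2 (SE, edgeR adjusted p = 1.63e-08). For evm.model.ctg1.273 the longer ants had 23.5 to 363.5 CPM with a median of 80.6, and the shorter ants 7.71 to 363.6 CPM with a median of 164.3. Its fitted change was -0.44 ± 0.071 log2 per unit of length (SE, edgeR adjusted p = 5.91e-07), again the steepest of the members, and the ranges nearly coincided although the medians lay far apart.

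The median slopes on body length of each list had the same direction in the 3 colonies; 2 high-list members were negative in colony 3 and 1 low-list member was positive in colony 4. Fitted for each colony in 1 model, 37 high-list members were called higher and 41 low-list members lower in colony 2 (background 6.68% and 6.73%), 10 and 9 in colony 3 (background 1.05% and 0.497%), and 23 and 16 in colony 4 (background 1.94% and 1.02%). The median slopes of the high list were 0.094, 0.063 and 0.087 log2 in colonies 2, 3 and 4, and those of the low list were -0.074, -0.060 and -0.050. The edgeR test that the 3 slopes are equal called 0 of all genes tested (0%), with 3 members of each list at an unadjusted p below 0.05. DESeq2 was not run on that test. The number of calls therefore differed between colonies while no difference between the slopes themselves passed the test. In the 87 high-end ants alone, given age, 30 high-list members were called higher (background 3.89%) and 31 low-list members lower (background 3.33%), but without colony 2 none of either list was called, and calls over all genes fell to 0.0191%, against 7.22% with colony 2. With colony 2 left out of the high-end and intermediate ants, 30 of 50 high-list members were still called higher.

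Across the 8183 models, r in the 162 low-end ants and the slope on body length in the other labelled ants had a Spearman correlation of 0.74. This is a correlation across genes, which are not independent of each other, and it carries no p. The 2 measures share no ant, although they share the colonies and the counting. The members sit at both ends of a relation that runs through all the models.

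**Figure D3:**
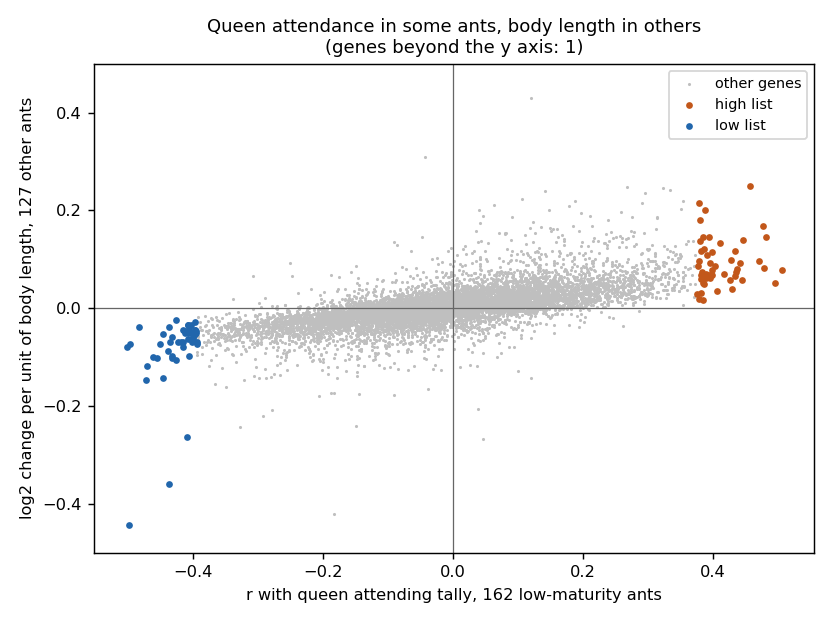
Each point is 1 of 8183 gene models, with r for queen attendance in 162 low-end ants (x axis, no unit) against the log2 change per unit of body length in the high-end and intermediate ants (y axis, shown from -0.5 to 0.5, with 1 model beyond); high-list members are orange, low-list members blue and other models grey. All high-list members lie above 0 and all low-list members below 0 on the y axis, and the Spearman correlation over all points is 0.74.

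Queen attendance itself gave no member call in the high-end and intermediate ants. The same slope on the tally, given colony, oriented maturity, age and brood care, called 0 of 50 high-list members and 0 of 50 low-list members in edgeR, beside 0.0861% of all genes called higher and 0% called lower. No member had an unadjusted p below 0.05, and DESeq2 also called 0 and 0. Per doubling of the tally plus 1 the median slope was 0.058 log2 in the low-end ants and 0.0083 in the high-end and intermediate ants for the high list, and -0.041 and 0.0049 for the low list. With 16 attending ants the precision was low: the median SE was 0.049 log2 in the high list and 0.035 in the low list, against 0.010 and 0.007 in the low-end ants. For 48 high-list members and 40 low-list members the slope of the low-end ants lay within 2 SE of the slope in the other ants. The median slopes of the low-end ants, 0.058 and -0.041, were little larger in size than the median SE in the other ants. The absence of calls therefore cannot show that such slopes were absent there. Whether the slopes differ between the 2 sets of ants was not tested.

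Between the ends of maturity, more high-list members were lower than higher in high-end ants, and more low-list members were higher than lower. This comparison shares the low-end ants with the rule but uses their mean level, which the rule did not. In high-end ants 23 high-list members were called lower and 5 higher than in low-end ants, beside 20.8% and 21.8% of all genes, with a median difference of -0.065 log2. In the low list 33 members were called higher and 0 lower, with a median of 0.061 log2. With age in the model, 16 high-list members were lower and 0 higher (background 6.97% and 6.89%), and 22 low-list members were higher and 0 lower. Median body length was 8.87 in high-end ants and 9.30 in low-end ants. With body length added to the fit without age, 23 high-list members were lower and 5 higher, and 32 low-list members were higher, so the counts were nearly as without it.

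Of the named models, evm.model.ctg44.74 had 84.02 to 215.1 CPM with a median of 148.4 in 87 high-end ants, against 84.5 to 257.3 CPM with a median of 170.2 in 162 low-end ants. It fell by 0.28 ± 0.033 log2 (SE, edgeR adjusted p = 2.33e-14), and the ranges shared nearly all of their width. For evm.model.ctg12.178 the medians were 162.2 CPM in high-end ants and 164.7 CPM in low-end ants, and the difference of -0.037 ± 0.022 log2 did not pass the threshold (SE, edgeR adjusted p = 0.18). High-end ants had a median of 147.4 CPM of evm.model.ctg58.41 and low-end ants 136.7 CPM, a rise of 0.11 ± 0.026 log2 (SE, edgeR adjusted p = 0.00013). The widest gap was in evm.model.ctg1.273, with 7.71 to 363.6 CPM and a median of 105.6 in high-end ants, against 6.73 to 308.8 CPM and a median of 45.3 in low-end ants. It rose by 0.99 ± 0.158 log2 (SE, edgeR adjusted p = 2.39e-08). Without colony 2 and with age in the model, its difference was 0.073 log2 (edgeR adjusted p = 0.93), against 0.615 ± 0.196 log2 with the 3 colonies (SE, edgeR adjusted p = 0.019).

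Colony 3 differed from the other colonies in this comparison. In colonies 2, 3 and 4, 22, 9 and 25 high-list members were called lower and 1, 13 and 1 higher in high-end ants (background lower 10.3%, 11% and 15.3%, higher 10.6%, 13.8% and 13.5%). The median difference of the high list was -0.14 log2 in colony 2, 0.046 in colony 3 and -0.14 in colony 4. In the low list 26, 8 and 30 members were called higher and 0, 6 and 0 lower, with medians of 0.088, 0.020 and 0.10 log2. The edgeR test that the 3 colonies are equal called 25 high-list and 11 low-list members of 50 each, beside 12.1% of all genes. Of those 25 high-list members, 20 had a positive difference in colony 3, against 3 in colony 2 and 3 in colony 4. High-end ants had a median age of 20, 31 and 29 months in colonies 2, 3 and 4, and low-end ants 5, 11 and 10 months. Median body length was 8.62, 8.84 and 9.34 in the high-end ants of colonies 2, 3 and 4, and 8.89, 9.42 and 9.37 in the low-end ants. The part of age and length in the difference between colonies was not tested.

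**Figure D4:**
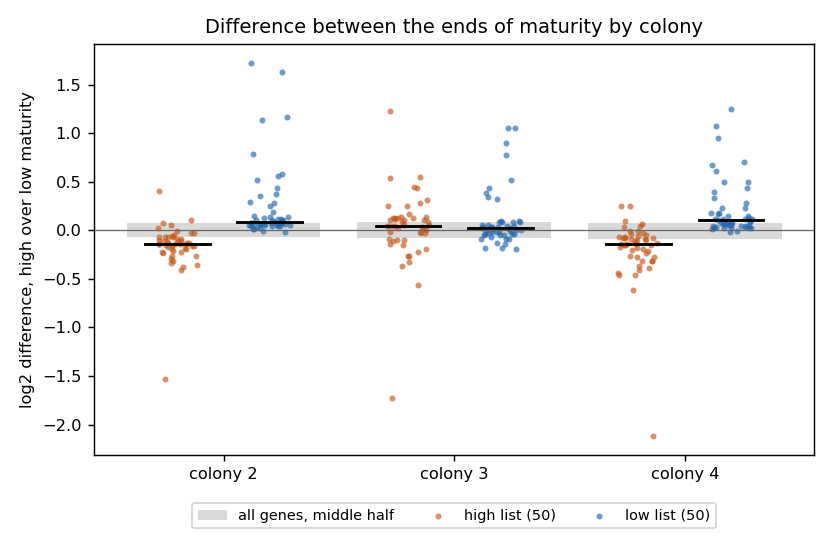
Log2 difference between high-end and low-end ants (y axis, high over low oriented maturity) in each colony (x axis); points are members of the high list (orange) and the low list (blue), black bars are list medians and grey boxes span the middle 50% of 10457 genes. High-list medians are -0.14, 0.046 and -0.14 in colonies 2, 3 and 4, and low-list medians are 0.088, 0.020 and 0.10.

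Between high-end and intermediate ants, given age, 4 high-list members were lower and 1 higher (background 0.65% and 0.488%), and 2 low-list members were higher and 0 lower. Without colony 4 no member of either list was called, and without colony 3 there was 1 in each list, beside 0.0478% and 0.0765% of all genes, against 1.14% with the 3 colonies. The medians of evm.model.ctg44.74 were 148.4 CPM in 87 high-end ants and 161.2 CPM in 40 intermediate ants, a difference of -0.17 ± 0.048 log2 (SE, edgeR adjusted p = 0.044) that was -0.14 log2 without colony 3 and -0.13 log2 without colony 4 and no longer passed (edgeR adjusted p = 0.55 and 0.62). The other 3 named models had edgeR adjusted p-values of 0.81 to 0.93 here.

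Some members also went with age in the 87 high-end ants. Per 12 months, 17 high-list members were called higher (background 1.3%) and 4 low-list members lower (background 0.995%), with no call in the other direction. The median slope was 0.088 log2 in the high list and -0.057 in the low list. With body length added to that fit, 1 high-list and 0 low-list members were called (background 0.105% higher and 0.0574% lower), with 21 and 9 members at an unadjusted p below 0.05 in edgeR, and the medians were 0.055 and -0.029 log2. DESeq2 was not run with body length added. Without length in the fit, 2 and 1 members were called for age without colony 2, 6 and 1 without colony 3, and none without colony 4. Calls over all genes were 0.249%, 1.02% and 0.201% in these fits, against 2.3% with the 3 colonies. In the low-end ants age ran the other way, as a description: given brood care and attendance, its median partial rho was -0.17 in the high list, with 39 of 50 negative, and 0.18 in the low list, with 47 of 50 positive. Over all 8183 models 4207 were negative for age and 3976 positive. For foraging, the labelled nurse to forage ratio given age, 3 high-list members were lower and 1 higher (background 0.631% and 0.497%) and 0 low-list members were called, with 4 of them at an unadjusted p below 0.05 in edgeR and 0 called by DESeq2.

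**Figure D5:**
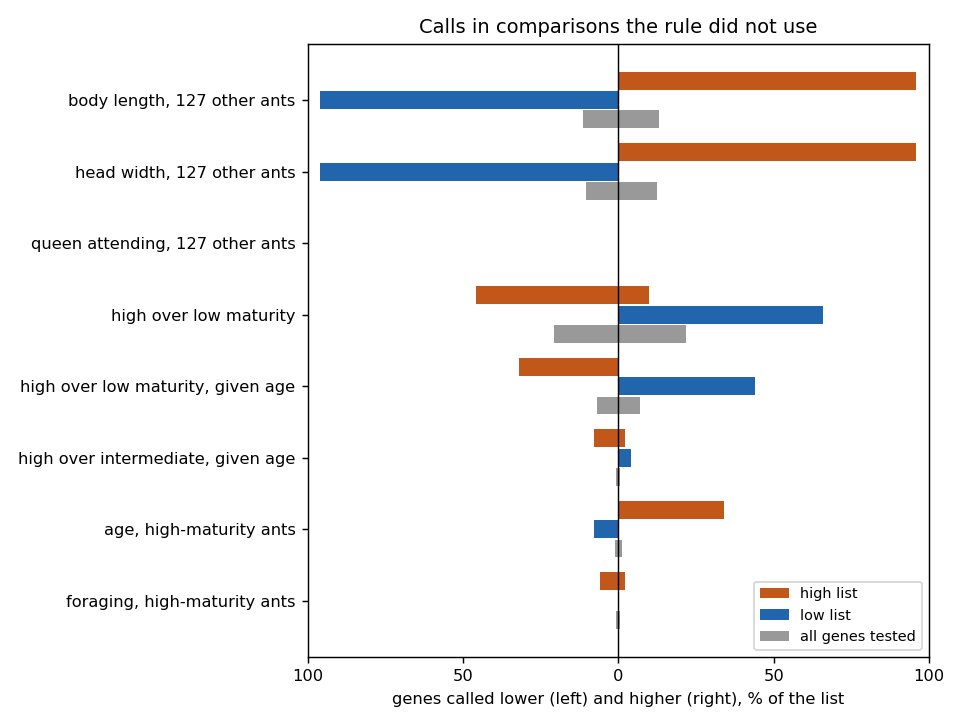
Percentage of the high list (orange), the low list (blue) and all 10457 genes tested (grey) called higher (right of 0) or lower (left of 0) at an edgeR adjusted p below 0.05 in 8 comparisons (rows). Body length and head width call 48 of 50 members of each list in opposite directions. Queen attending in the same ants calls none, at low precision because only 16 of them attended.

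Mean levels of the members also differed between colonies in the low-end ants, given age, which the rule did not use because it ranked ants within colonies. In colony 3 relative to colony 2, 1 high-list member was higher and 20 lower, and 16 low-list members were higher and 1 lower (background 17.2% higher and 17.9% lower). In colony 4 relative to colony 2 these were 8 and 14 in the high list and 29 and 3 in the low list (background 32.7% and 26.9%). In colony 4 relative to colony 3 they were 21 and 8 in the high list and 20 and 6 in the low list (background 32.9% and 24.8%). Many genes differed between the colonies, and most of these counts have to be read against that high background.

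The members of a list varied together from ant to ant. Over pairs of members in the 162 low-end ants, the median Spearman rho of CPM ranked within colony was 0.51 inside the high list, 0.57 inside the low list and -0.50 between the lists, against 0.015 over all pairs of the 8183 models. In the 87 high-end ants, which the rule did not use, these medians were 0.44, 0.53 and -0.43, against 0.018 over all pairs. Nearly all pairs inside a list were positive in the high-end ants, 98.04% in the high list and 99.9% in the low list, and 1.72% of the pairs between the lists were. The pairs share the same libraries and their depth, and the values are a description. The 100 members lay on 63 contigs, at most 6 on any of them, and 2 pairs had neighbouring numbers on a contig. Of the 78 pairs that shared a contig, 10 lay within 10 numbers of each other. Most members thus had no other member as their direct neighbour in number. How often models drawn from the whole table lie this close was not tested.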

How the data were processed

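RNA was extracted with Tri reagent and libraries were made with a KAPA stranded mRNA kit, per the labels' protocols. The deposited table holds raw counts, as whole numbers, for each gene model. STAR and featureCounts were used, per the submitters' processing notes; versions, genome build, annotation and strand setting are not given in the sources used here, so reads of overlapping, antisense or near-identical models cannot be told apart. Columns were matched to ants by title. Members and comparisons were chosen with earlier results of these data known.

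CPM were computed from column sums, and partial correlations from ranks within colony (Python 3.11.15, scipy 1.17.1). Tests were edgeR 4.0.16 quasi-likelihood F-tests in R 4.3.3 (robust, TMM, filterByExpr on colonies with a minimum count of 10), with Benjamini-Hochberg adjustment over all 10457 genes and calls at adjusted p below 0.05; SE came from the slope and its F statistic. Tallies entered as log2 of the tally plus 1 and age per 12 months. Each test used only the ants of its comparison, pooled over colonies. Correlations between labels used two-sided permutation tests with 100000 resamples. The named models are those with the 2 highest and the 2 lowest r that had 1 sign in the 3 colonies. Alternatives were size factors of DESeq2 (RLE), DESeq2 1.42.0, no filter on low counts, log2 library total as a covariate, other forms of the rule, and each colony left out. Chosen after seeing the data were head width, slopes and differences by colony, high-end ants alone, body length in the age fit, and both labels in the rule.

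On simulated counts for 10457 genes, the high against low fit recovered 86.6%, 94.0% and 97.0% of changes of 0.25, 0.5 and 1 log2. Of its 199 calls, 7.04% were false. The high against intermediate fit given age recovered 68.7%, 88.1% and 97.0% at these sizes, and 7.65% of its 183 calls were false. Recovery of smaller differences, such as the high against low list medians of -0.065 and 0.061 log2, was not tested. The labels give no sequencing batch, and p-values rest on how far ants within the 3 colonies vary. Gene lists and markers could not be matched to identifiers, and 10 ants without labels entered no test.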

Additional observations from a re-analysis of the deposited data

Results flagged for a closer look

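The difference between high-end and low-end ants was not the same in the 3 colonies for 25 high-list members and 11 low-list members, by the edgeR test that the 3 differences are equal (adjusted p below 0.05). Among the 25, the median difference was -0.14 log2 in colony 2, 0.13 in colony 3 and -0.11 in colony 4. Among the 11, it was 0.11, -0.034 and 0.089 log2, and 7 of the 11 were negative in colony 3, against 1 in colony 2 and 0 in colony 4. The model evm.model.ctg44.74 was among the 25, with an edgeR adjusted p of 0.0103. Its differences were -0.20 ± 0.052, -0.19 ± 0.056 and -0.46 ± 0.056 log2 in colonies 2, 3 and 4 (SE), so here colony 4 stood apart in size and the direction was shared. Its medians were 161.8, 144.8 and 128.3 CPM in the high-end ants of colonies 2, 3 and 4, and 187.9, 160.9 and 169.8 CPM in the low-end ants. Why the colonies differed was not tested.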

How the results depend on the processing

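No paired analysis was possible because a number names a single ant within its colony, and numbers that recur between colonies tie no ants together. Of the values for the lists and for all genes, 187 stayed within 1.5 times of those reported and 57 did not. Calls of the named models were lost in 10 cases and gained in 3, and none that was called changed sign. Counts below are members, and percentages are of all genes tested. With colony 4 left out, queen attending in low-end ants called 0.822%, against 16.2% with the 3 colonies. High against low ends given age called 9 low-list members and 8.55% without colony 2, and 6.15% without colony 4. High against intermediate called 1 low-list member without colony 2, 1 and 1 (high list and low list) and 0.0765% without colony 3, and 0 and 0 and 0.0478% without colony 4. Queen attending in the other ants called 0.291% without the filter on low counts, 0.00956% as attended or not, and 0%, 0.239% and 0.00956% without colonies 2, 3 and 4. The age slope called 9 low-list members by DESeq2, 2 and 1 and 0.249% without colony 2, 6 and 1 and 1.02% without colony 3, 0 and 0 and 0.201% without colony 4, and 1 and 0 and 0.163% with body length added. Foraging called 2 high-list members and 0.277% without colony 2, 1 and 0.335% without colony 3, and 0.536% without colony 4. Body length called 30 high-list members and 9.47% without colony 2. In high-end ants alone it called 30 and 31 and 7.22%, with 0 and 0 and 0.0191% without colony 2, 9.23% without colony 3, and 22 and 23 and 5.2% without colony 4. The rule kept 31 and 23 members with maturity added, 33 low-list members with body length added, 27 and 26 without ants of tally 0, 22 and 29 without colony 2, 30 low-list members without colony 3, 32 without colony 4, and 23 and 11 with body length and maturity both added. Fewer ants enter a fit with a colony left out, and beyond that the cause was not tested. Whether depth limited any member was not tested beyond adding the library total. The queen attending slope outside the low end rested on 16 attending ants.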

Other observations

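The 10 ants without labels of age, maturity or behaviour entered no comparison. In these ants evm.model.ctg44.74 ran from 146.0 to 196.3 CPM with a median of 167.9, and evm.model.ctg12.178 from 155.4 to 184.8 CPM with a median of 161.8. The low-list model evm.model.ctg58.41 reached at most 158.6 CPM with a median of 136.9, and evm.model.ctg1.273 from 19.9 to 291.6 CPM with a median of 44.5.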
